A study of Mus musculus with 67 samples.

Results

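Thapsigargin with PDBu (Tg+PDBu) was set directly against LPS in cultured microglia of the Orai1 knockout (KO). The comparison used the 10 KO culture libraries with either stimulus, 5 with Tg+PDBu and 5 with LPS, of the 67 libraries in the series, and no untreated library entered its test. The members were found from the treatment and genotype in the labels, and no expression value was used to choose them. Microglia were shaken off mixed glial cultures made from the hippocampus of newborn mice at 2 to 5 days of age, and all cultures, WT included, received 1 µM hydroxytamoxifen. KO mice had floxed Orai1 alleles and a tamoxifen-inducible Cre in Cx3CR1, whereas WT mice had the floxed alleles without that Cre, so Orai1 loss and the Cre itself cannot be told apart. Stimulation lasted 6 h, with 0.2 µM thapsigargin and 50 nM PDBu, with 10 ng/ml LPS from Escherichia coli O111:B4, or with DMSO as vehicle. Also used were 12 libraries of WT cultures with Tg+PDBu or LPS, 6 libraries of KO cultures with vehicle, and libraries of microglia sorted from the brains of adult KO mice, 10 to 12 weeks old and previously given tamoxifen, after LPS at 1 mg/kg or vehicle. Sorted libraries of WT mice of the same age, with LPS or vehicle, shared the fit that gave the spread for sorted cells. WT cultures with vehicle entered the CPM scaling, the counts of row 1, the vehicle levels of the rows named for KO minus WT, and the fits of all 34 culture libraries.

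Orai1 forms the pore of a calcium channel in the plasma membrane that opens when STIM proteins sense that the calcium store of the endoplasmic reticulum is empty. Thapsigargin empties that store by blocking the pump that refills it, and PDBu, a phorbol ester, switches on protein kinase C. LPS is sensed by Toll-like receptor 4, which signals to NF-kB and to interferon regulatory factors in microglia. In the KO, both stimuli therefore meet cells meant to lack the channel that the first of them is used to open.

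The counts are listed by row, without gene names or identifiers. Results are given by row number counted from the top of the table, and no gene was inferred from that place. Orai1 itself, markers of microglia and of the astrocytes they were grown with, and the genes of the pathways above could not be looked up, so neither the knockout nor the cell type was checked by name. Row 1 was taken from earlier results, and its counts followed the genotype labels. It had 0 counts in all 18 WT culture libraries, which over their summed depth allows up to 0.0153 CPM (counts per 1000000 counts of the scaled library), and it had counts in every KO culture library except that of female culture 16 with Tg+PDBu. In the KO, its level was 10.4 ± 2.21 CPM with vehicle (SD, n = 6), 3.43 ± 0.817 CPM with LPS (SD, n = 5) and 0.132 ± 0.105 CPM with Tg+PDBu (SD, n = 5). Its level with Tg+PDBu was lower than with LPS by a log2 difference of -4.72 ± 0.51 (SE; adjusted p = 0.000104, quasi-likelihood test of edgeR).

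The 10 libraries held 7868694 to 13605094 counts. Neither total counts, rows detected, nor the share of counts in the top 100 rows differed between the stimuli beyond the spread of the libraries. The share in the top 100 rows came closest, at 19.2% ± 0.700 with Tg+PDBu and 20.6% ± 1.43 with LPS (SD, n = 5 each; two-sided exact permutation test, p = 0.0635, adjusted p = 0.254 over 4 measures, smallest possible p 0.00794). In 4 rows that were specific to males among the sorted libraries, KO male cultures with either stimulus lay at 144 to 220 CPM in sum and KO female cultures at 0 to 5.02 CPM. The 3 libraries of WT female culture 3 lay between the sexes, at 85.3 to 106 CPM. Counts that rest on WT, and KO minus WT of the rows named for it, are therefore also given without that culture.

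The stimuli left the KO cultures with different RNA over a large part of the rows. In these bulk libraries, a change in the mix of cells and a change in RNA per cell cannot be told apart. Of 15267 rows tested, 6715 (44%) differed at an adjusted p under 0.05. Tg+PDBu gave the higher level in 3457 rows (22.6%) and LPS in 3258 (21.3%). The median log2 difference over all rows tested was -0.02, and the median was 0.83 among rows higher with Tg+PDBu and -0.92 among rows higher with LPS. Large differences were more often in favour of LPS. A difference of more than 4-fold was estimated for 430 called rows higher with Tg+PDBu and 556 higher with LPS, and one of more than 64-fold for 14 and 28. Some of these rows were close to silent on one side: 33 called rows had at most 3 counts in total over the 5 LPS libraries and 20 had at most 3 over the 5 Tg+PDBu libraries, so their fold is not known beyond a lower bound.

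The separation was visible library by library. All 5 Tg+PDBu libraries lay above all 5 LPS libraries in 2448 rows, and all 5 LPS libraries lay above in 2791, together 34.3% of the rows tested. Of the called rows, 2428 higher with Tg+PDBu and 2575 higher with LPS showed no overlap, while 1712 called rows did overlap. The treatments also formed the first dimension of a multidimensional scaling of the 10 libraries, which carried 50.1% of the variance in the 500 rows used. The Tg+PDBu libraries lay between -1.80 and -1.43 on it and the LPS libraries between 1.38 and 1.98. Of the 8552 rows without a call, 5545 had a 95% interval within 2-fold in either direction, and in 3007 the interval reached past 2-fold, which leaves room for a difference of that size.

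Row 3460 and row 17372 had the largest differences toward Tg+PDBu among rows meeting the naming rule, which asked for a call, an average level not under 1 log2 CPM, and agreement of the sign between the sexes and among the cultures with both stimuli. Agreement among the cultures was asked only of the rows named for the direct comparison. For rows named by KO minus WT, that difference had to have the same sign in both sexes. No agreement was asked of the rows named for opposite changes or for sorted cells. Row 3460 stood at 29.3 and 47.8 CPM in the female Tg+PDBu cultures 16 and 7, and at 23.7, 25.7 and 22.3 CPM in the male cultures 18, 6 and 8. With LPS it stood at 0.102 and 0.546 CPM in female cultures 15 and 16 and at 0.193, 0.279 and 0.214 CPM in male cultures 18, 6 and 8. Every Tg+PDBu library was thus far above every LPS library, and vehicle (0 to 0.690 CPM) overlapped LPS. The log2 difference was 6.84 ± 0.30 (SE; adjusted p = 1.52e-06, edgeR).

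Row 17372 showed the same layout. Its levels with Tg+PDBu were 16.1 and 13.8 CPM in female cultures 16 and 7 and 21.4, 9.80 and 16.1 CPM in male cultures 18, 6 and 8. With LPS it had 0 counts in female culture 15 and male culture 8 and no more than 0.546 CPM in the others, 10 counts in all. The log2 difference was 6.38 ± 0.57 (SE; adjusted p = 3.44e-05, edgeR). In neither row did LPS pass the test against vehicle, with adjusted p = 0.863 for row 3460 and 0.369 for row 17372.

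Row 13484 and row 693 had the largest differences toward LPS. Row 13484 stood at 112 and 60.0 CPM in female LPS cultures 15 and 16 and at 73.8, 79.7 and 29.4 CPM in male cultures 18, 6 and 8. With Tg+PDBu it had 6 counts over the 5 libraries, none of them in cultures 16 and 8. The vehicle libraries lay between, at 0.616 to 1.33 CPM. The log2 difference was -9.75 ± 0.59 (SE; adjusted p = 4.81e-06, edgeR).

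Row 693 reached the higher LPS level of this pair and varied widely. It stood at 200 and 64.4 CPM in female cultures 15 and 16 and at 162, 328 and 75.9 CPM in male cultures 18, 6 and 8. With Tg+PDBu the levels were 0 and 0.300 CPM in female cultures 16 and 7 and 0.336, 0.365 and 0.359 CPM in male cultures 18, 6 and 8. Here vehicle was silent too, with 3 counts over 6 libraries. The log2 difference was -9.23 ± 0.73 (SE; adjusted p = 1.72e-05, edgeR).

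**Figure D1:**
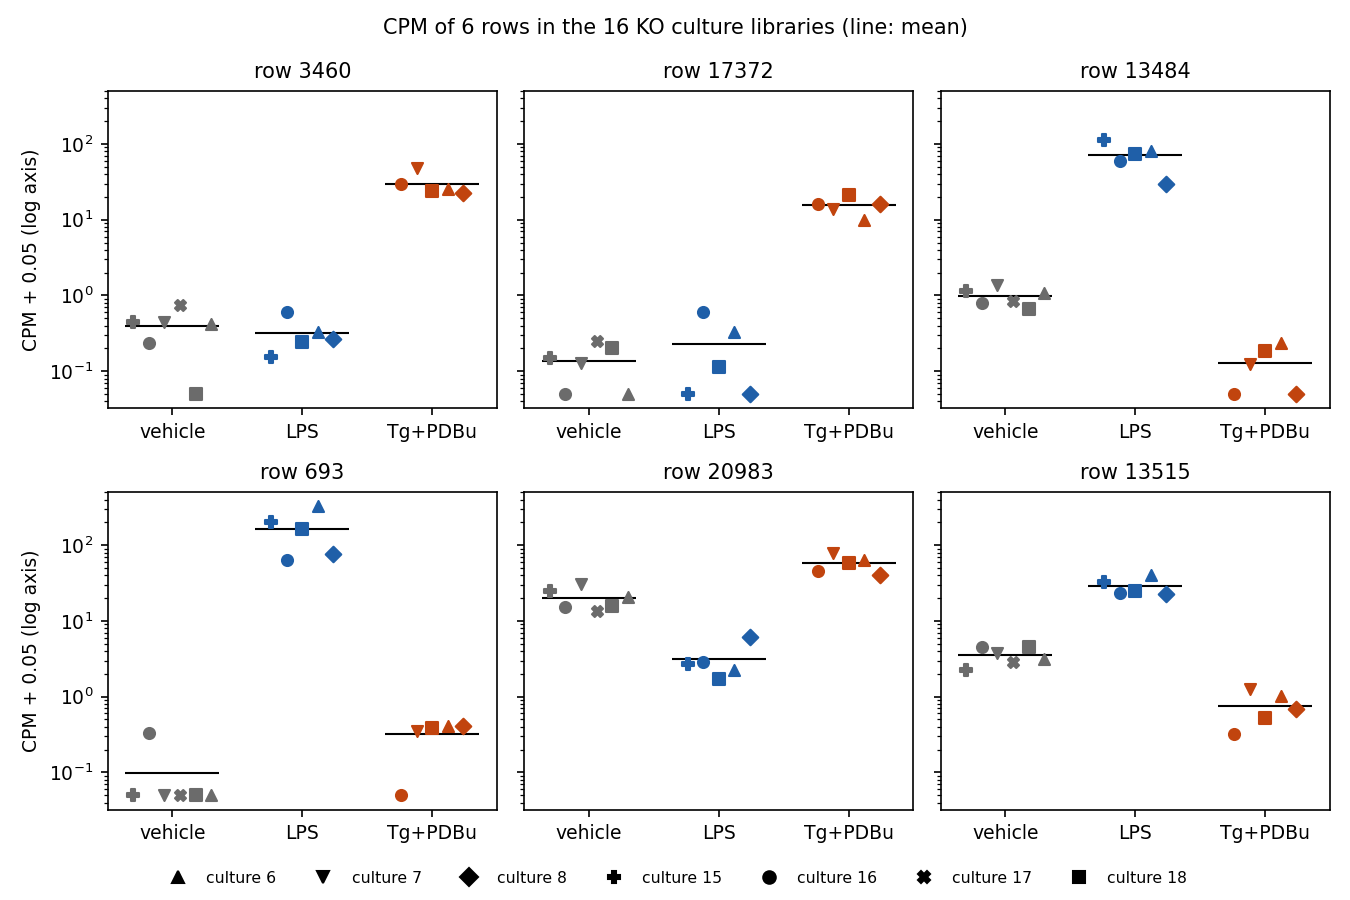
CPM with 0.05 added (log axis) of 6 rows in each of the 16 KO culture libraries, by treatment, with 1 symbol for each culture number and a line at the mean. In rows 3460 and 17372 vehicle lies at the LPS level, in row 693 vehicle lies at or below the Tg+PDBu level, and in rows 13484, 20983 and 13515 vehicle lies between the 2 stimuli.

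The rows that differed over 4-fold took a visible part of each library. The 430 rows higher with Tg+PDBu held 5.03% to 5.56% of the counts in Tg+PDBu libraries, 0.629% to 0.785% in LPS libraries and 0.855% to 0.903% in vehicle libraries. The 556 rows higher with LPS held 4.48% to 7.72% in LPS libraries, 0.579% to 0.922% in Tg+PDBu libraries and 1.18% to 1.43% in vehicle libraries. These rows were chosen by this contrast, so the shares describe its size and are not tested. The Tg+PDBu libraries were alike in their share, whereas the LPS libraries ranged widely, with male culture 6 (7.72%) and female culture 15 (6.62%) the highest and female culture 16 (4.48%) and male culture 8 (4.68%) the lowest. Rows higher with LPS over 4-fold also had the wider spread between LPS libraries of the same sex, with a median SD of 0.51 log2 CPM against 0.28 over all rows tested. For rows higher with Tg+PDBu over 4-fold, the median SD between Tg+PDBu libraries was 0.41, against 0.25 over all rows.

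**Figure D2:**
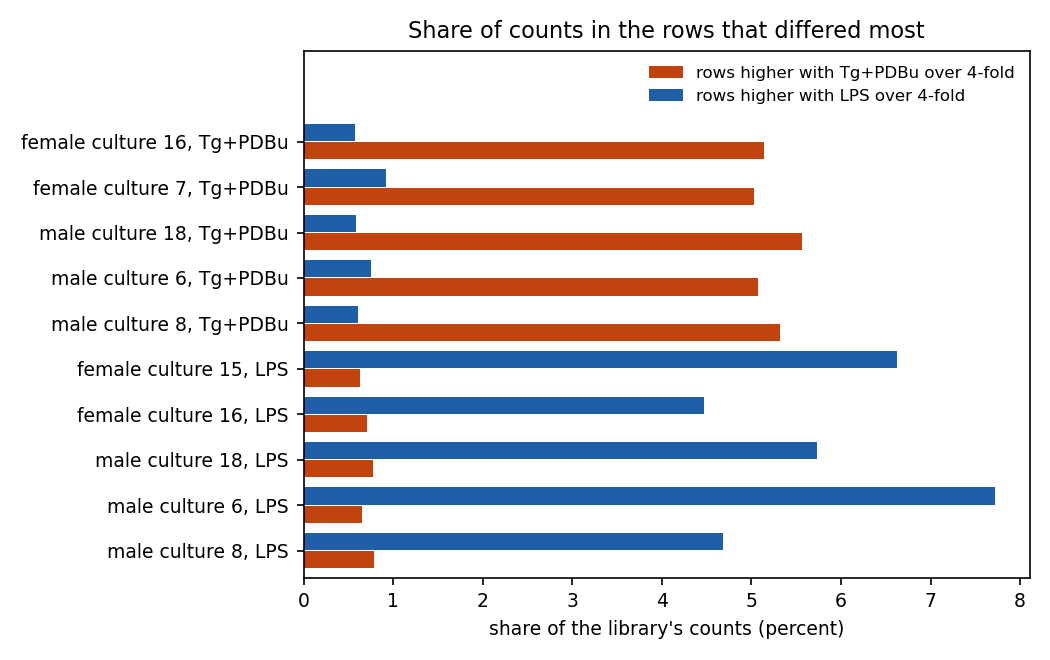
Percent of each library's counts that fell in the 430 rows higher with Tg+PDBu over 4-fold and in the 556 rows higher with LPS over 4-fold, for the 10 KO libraries. The Tg+PDBu libraries hold 5.03% to 5.56% in the rows higher with Tg+PDBu, and the LPS libraries hold 4.48% to 7.72% in the rows higher with LPS.

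Calls were more frequent among well-covered rows. With the rows tested split by mean log2 CPM into 4 classes of equal size, the share called was 28.8%, 41.8%, 50.4% and 54.9% from the lowest class to the highest. The median size of the log2 difference over all rows of a class was 0.71, 0.46, 0.40 and 0.39 in the same order, and over called rows alone 1.90, 0.93, 0.71 and 0.68. A row of low level needs a larger difference to be called, and its estimate is noisier, so these sizes are not compared between classes. In the lowest class LPS was more often the higher side (646 rows against 453), and in the highest class Tg+PDBu was (1218 against 879).

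Female culture 16 and male cultures 6, 8 and 18 had a library of each stimulus, so the difference could be read inside a culture. Of the rows higher with Tg+PDBu, 3170 of 3457 had a positive difference in each of these 4 cultures, and 3168 of 3258 rows higher with LPS had a negative one. Together these were 94.4% of the called rows, against 60.0% of all rows tested with the same sign in all 4. The libraries are those of the test, so these counts describe it and are no separate evidence. A difference of more than 2-fold in each of the 4 cultures was seen in 635 rows higher with Tg+PDBu and 909 higher with LPS. The 4 cultures had similar medians, from 0.68 to 0.86 among rows higher with Tg+PDBu and from -1.01 to -0.93 among rows higher with LPS, with female culture 16 the largest in both.

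No row was found in which the difference between the stimuli itself differed between KO males and KO females. Of 15267 rows, 0 (0%) passed for the male minus female difference with edgeR, 621 had an unadjusted p under 0.05 (763.35 would be 5% of the rows), and the lowest adjusted p was 0.222. DESeq2 called 9. Of the called rows, 6696 of 6715 (99.7%) had the same sign in both sexes, against 81.1% of all rows. The calls rest on the mean of the sexes in the same libraries, so this agreement describes the test and is no separate evidence. The precision was limited by 2 female libraries of each stimulus: the 95% interval of the male minus female difference lay within 2-fold in 6474 rows, and the median distance from the estimate to the end of the interval was 0.84 log2 units. Calls made within a sex numbered 2108 higher with Tg+PDBu and 1789 higher with LPS in females, and 2569 and 2210 in males.

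The vehicle libraries of the KO placed the rows that differed against untreated cultures. In a fit of the 16 KO libraries with 15619 rows tested, 8035 rows (51.4%) differed between Tg+PDBu and vehicle and 3714 (23.8%) between LPS and vehicle. Tg+PDBu was above vehicle in 4081 rows and below in 3954, and LPS was above in 2026 and below in 1688. When all 34 culture libraries shared a fit and its scaling, the same splits were 2862 above and 4940 below for Tg+PDBu, and 1391 and 2256 for LPS. The median over rows shifted by -0.19 and -0.11 on the log2 scale in that fit, which differs from the other in scaling, rows and estimated spread, and the cause was not tested. With RLE size factors as the only change, the splits were 4112 and 3933, and 2120 and 1587. Both comparisons use the same vehicle libraries, so their calls are given side by side and no overlap between them is read as a result. They also use the stimulated libraries that chose the rows differing between the stimuli. For those rows, calls and positions against vehicle are therefore partly fixed by that choice and are no separate evidence.

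Among the 3457 rows higher with Tg+PDBu than with LPS, 2783 were above vehicle with Tg+PDBu, 405 were above vehicle with LPS and 624 were below vehicle with LPS. Among the 3258 rows higher with LPS, 2239 were below vehicle with Tg+PDBu, 1010 were above vehicle with LPS and 200 were below vehicle with LPS. Rows without a call against vehicle for either stimulus numbered 275 and 282. Within these counts, 233 rows were above vehicle with Tg+PDBu and below it with LPS, and 278 rows were above vehicle with LPS and below it with Tg+PDBu.

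The same could be read as a position, with 0 for a vehicle mean equal to the LPS mean and 1 for a vehicle mean equal to the Tg+PDBu mean on the log2 CPM scale. Among rows higher with Tg+PDBu over 2-fold, the median position was 0.12 (1326 rows). In 47.7% of these rows vehicle lay between the stimuli and nearer LPS, in 35.7% it lay beyond LPS, in 12.7% between and nearer Tg+PDBu, and in 3.85% beyond Tg+PDBu. Among rows higher with LPS over 2-fold the median was 0.32 (1503 rows). Here the shares were 29.5% nearer LPS, 30.1% beyond LPS, 25.2% nearer Tg+PDBu and 15.2% beyond Tg+PDBu. Rows higher with LPS were therefore spread over the whole scale, while most rows higher with Tg+PDBu had vehicle at or near the LPS level.

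**Figure D3:**
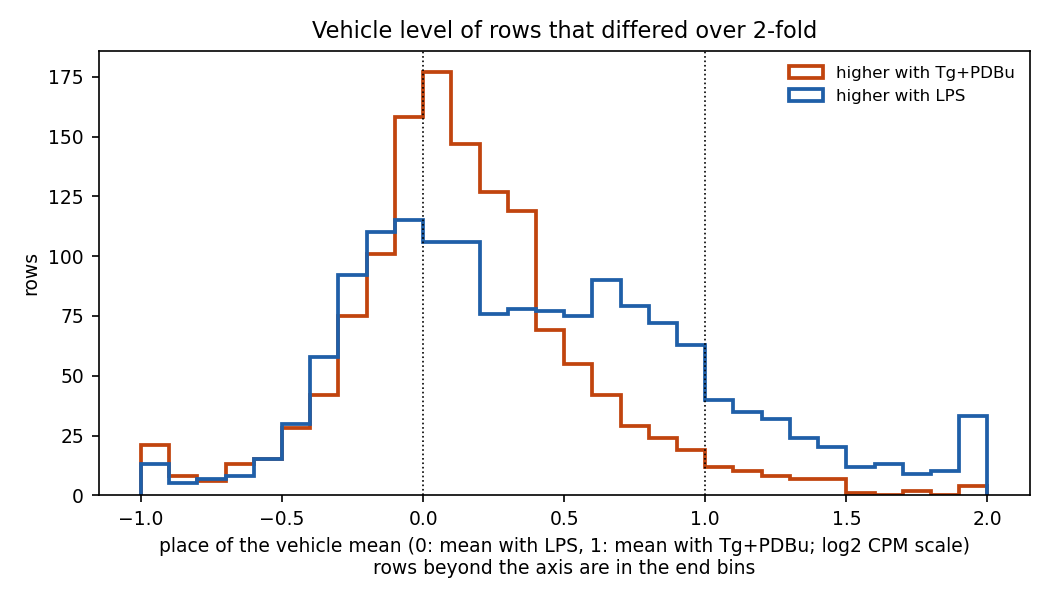
Number of rows by the position of the vehicle mean between the LPS mean (0) and the Tg+PDBu mean (1), in bins of the log2 CPM scale, for rows that differed over 2-fold between the stimuli in the KO. The median is 0.12 for rows higher with Tg+PDBu and 0.32 for rows higher with LPS, and both classes reach from below 0 to above 1.

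Rows 20983 and 44376 met the naming rule for Tg+PDBu above and LPS below vehicle. Row 20983 stood at 45.7, 79.2, 58.4, 63.8 and 40.4 CPM in the Tg+PDBu cultures 16, 7, 18, 6 and 8, and at 2.65, 2.84, 1.67, 2.23 and 6.09 CPM in the LPS cultures 15, 16, 18, 6 and 8. Vehicle ranged from 13.3 to 30.7 CPM with a median of 18.2 CPM, above every LPS library and below every Tg+PDBu library. Against vehicle, the log2 change was 1.74 ± 0.28 with Tg+PDBu (SE; adjusted p = 0.000189, edgeR) and -2.63 ± 0.34 with LPS (SE; adjusted p = 7.89e-05, edgeR).

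Row 44376 followed at lower levels. It stood at 10.7, 24.6, 14.7, 14.4 and 11.6 CPM in the Tg+PDBu cultures and at 1.12, 1.42, 1.16, 3.91 and 2.46 CPM in the LPS cultures, in the same order of cultures as above. Vehicle ranged from 4.08 to 8.37 CPM, again between the stimuli without overlap. Its log2 change against vehicle was 1.61 ± 0.29 with Tg+PDBu (SE; adjusted p = 0.000363, edgeR) and -1.58 ± 0.33 with LPS (SE; adjusted p = 0.00317, edgeR).

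Rows 13484 and 13515 met the rule for the opposite pattern. Row 13484, described above, changed against vehicle by 6.36 ± 0.34 with LPS (SE; adjusted p = 4.08e-08, edgeR) and by -3.39 ± 0.71 with Tg+PDBu (SE; adjusted p = 0.00133, edgeR). The fall with Tg+PDBu rests on 6 counts against 71 with vehicle and was not called by limma with voom (adjusted p = 0.128). Row 13515 stood at 32.5, 23.5, 25.0, 40.2 and 22.4 CPM in the LPS cultures 15, 16, 18, 6 and 8, and at 0.270, 1.20, 0.470, 0.974 and 0.629 CPM in the Tg+PDBu cultures 16, 7, 18, 6 and 8. Vehicle ranged from 2.19 to 4.55 CPM and overlapped neither. Its direct log2 difference was -5.20 ± 0.36 (SE; adjusted p = 9.60e-06, edgeR).

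In row 1, vehicle lay above both stimuli. Its libraries held 7.06 to 13.7 CPM with vehicle, 2.51 to 4.59 CPM with LPS and 0 to 0.269 CPM with Tg+PDBu. The log2 change against vehicle was -1.46 ± 0.27 with LPS (SE; adjusted p = 0.00149, edgeR) and -6.18 ± 0.41 with Tg+PDBu (SE; adjusted p = 6.94e-08, edgeR). WT had 0 counts with every treatment, so no difference between the stimuli could be estimated there. What the row measures was not known here.

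WT cultures answered the question of how far the difference between the stimuli depended on the genotype. In a fit of the 22 stimulated culture libraries, 7511 of 15528 rows (48.4%) differed between the stimuli in WT, 3568 higher with Tg+PDBu and 3943 higher with LPS. The same fit, of 10 KO and 12 WT libraries, called 3203 and 2851 rows in the KO. Without WT female culture 3 it called 3973 and 3437 rows in WT and 3556 and 3038 in the KO. Why fewer rows were called in the KO was not tested. Of the rows called higher with Tg+PDBu in the 10 KO libraries, 2182 were called in the same direction in WT, which is 63.2% of the KO rows tested with WT and 61.2% of the WT rows. Of the KO rows higher with LPS, 2178 were called the same way in WT, which is 67.0% of the KO rows and 55.2% of the WT rows. The direction was the same in both genotypes, called or not, for 88.5% of the KO rows called, against 74.8% of all rows. Calls in opposite directions were made in 209 rows. Without WT female culture 3, 2254 rows higher with Tg+PDBu and 2005 higher with LPS were called the same way in WT. These were 65.3% and 61.6% of the KO rows, the direction was the same in 87.1% of the KO rows called against 73.2% of all rows, and 237 rows were called in opposite directions. Across rows, which are not independent replicates, Pearson's r between the KO and WT differences was 0.736 and Spearman's rho 0.677. Without WT female culture 3 these were 0.697 and 0.634.

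The difference between the genotypes was tested itself. The KO minus WT difference passed in 2479 of 15528 rows (16%), with 1623 above 0, that is, shifted toward Tg+PDBu in the KO, and 856 below 0. Without WT female culture 3 it passed in 2960 rows, 1697 above and 1263 below. RLE size factors as the only change gave 1331 above and 1046 below. All 34 culture libraries in 1 fit gave 1448 above and 1523 below, with a median shift over rows of -0.11, and DESeq2 gave 1677 and 1371. Both of these change more than the scaling, and the cause was not tested. In 1183 of the 2479 rows the sign was the same in both genotypes and the KO difference was the smaller, in 267 it was the larger, and in 1029 the estimates had opposite signs. Without WT female culture 3 these were 1420, 321 and 1219. Over all rows of the fit the sign was the same in 74.8%, and in 73.2% without that culture. The median size of the log2 difference over all rows was 0.48 in the KO and 0.55 in WT. All rows were not split by which genotype had the smaller difference, so 1183 against 267 is not read as particular to the called rows.

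**Figure D4:**
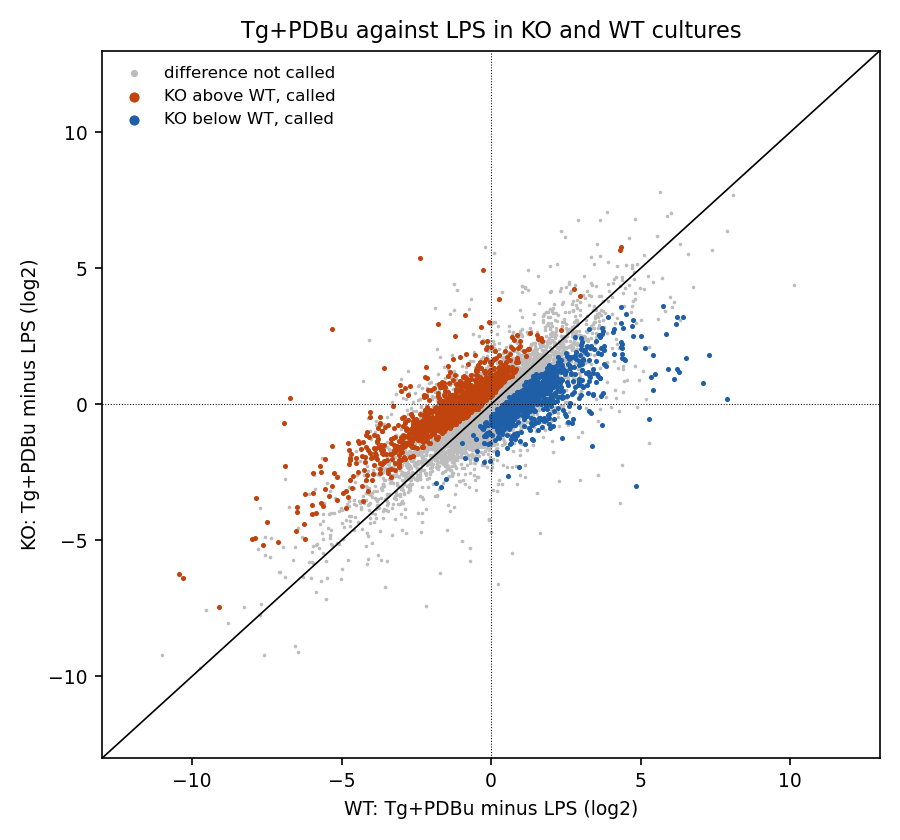
Log2 difference Tg+PDBu minus LPS in WT cultures (horizontal) and KO cultures (vertical) for 15183 rows, from 1 fit of the 22 stimulated culture libraries, with the line of equal differences. Rows with a called KO minus WT difference lie mostly between that line and a KO difference of 0, or across 0.

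Rows 37614 and 624 had the largest KO minus WT differences above 0. Row 624 stood at 27.1, 14.2, 19.9, 30.9 and 13.1 CPM with LPS in KO cultures 15, 16, 18, 6 and 8, and at 1.35, 1.65, 1.48, 2.92 and 2.34 CPM with Tg+PDBu in KO cultures 16, 7, 18, 6 and 8. In WT it stood at a median of 235 CPM with LPS (range 136 to 305, n = 6) and 0.894 CPM with Tg+PDBu (range 0.365 to 1.93, n = 6). LPS was the higher side in both genotypes, and no KO library with LPS reached the lowest WT library with LPS. The log2 difference between the stimuli was -3.43 ± 0.34 in the KO (SE; adjusted p = 5.77e-05, edgeR) and -7.88 ± 0.39 in WT (SE; adjusted p = 3.18e-11, edgeR), and KO minus WT was 4.44 ± 0.53 (SE; adjusted p = 4.41e-05, edgeR). WT female culture 3 was the highest WT culture with Tg+PDBu, and without it KO minus WT was 4.88 ± 0.54 (SE; adjusted p = 3.27e-05, edgeR).

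Row 37614 was low in every KO library. It stood at 1.22, 1.53, 2.38, 4.81 and 1.71 CPM with LPS and at 0.899, 1.50, 1.28, 1.16 and 1.08 CPM with Tg+PDBu, in the same order of cultures, and the stimuli overlapped. In WT its median was 23.2 CPM with LPS (range 4.35 to 49.8, n = 6) and 1.02 CPM with Tg+PDBu (range 0 to 5.89, n = 6). KO minus WT was 6.23 ± 1.08 (SE; adjusted p = 0.00126, edgeR). WT female culture 3 was the lowest WT culture with LPS, at 4.35 CPM, and the highest with Tg+PDBu, at 5.89 CPM, so that it alone among the WT cultures stood higher with Tg+PDBu. The other 5 WT cultures stood at 14.0 to 49.8 CPM with LPS and 0 to 2.20 CPM with Tg+PDBu, and without culture 3 KO minus WT was 6.79 ± 0.67 (SE; adjusted p = 2.58e-05, edgeR). With Tg+PDBu, WT male cultures 10, 4 and 9 had 0 counts, against 28, 16 and 55 counts in WT female cultures 12, 14 and 3. The fold in WT males is thus known only as a lower bound. The size of KO minus WT, which averages the sexes, is therefore not known closely. With all WT cultures and the culture as a block this difference was 5.87 and no longer passed (adjusted p = 0.0612, edgeR).

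Rows 11919 and 14974 had the largest KO minus WT differences below 0. Row 14974 stood at 13.6, 20.8, 19.4, 19.9 and 10.4 CPM with Tg+PDBu in KO cultures 16, 7, 18, 6 and 8, and at 3.67, 7.09, 5.02, 4.74 and 7.06 CPM with LPS in KO cultures 15, 16, 18, 6 and 8. The KO groups did not overlap, and the log2 difference was 1.70 ± 0.27 (SE; adjusted p = 0.00092, edgeR). WT had a median of 83.5 CPM with Tg+PDBu (range 65.7 to 121, n = 6) and 0.654 CPM with LPS (range 0.289 to 2.05, n = 6), so the KO was lower than WT with Tg+PDBu and higher than WT with LPS, without overlap. KO minus WT was -4.81 ± 0.48 (SE; adjusted p = 1.12e-05, edgeR). WT female culture 3 was the lowest WT culture with Tg+PDBu and the highest with LPS, and without it the value was -5.75 ± 0.45 (SE; adjusted p = 1.62e-06, edgeR). With vehicle, which did not enter this difference, row 14974 stood at 8.31 ± 1.78 CPM in the KO and 2.47 ± 1.27 CPM in WT (SD, n = 6 each).

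Row 11919 was separated by the stimuli in WT and not in the KO. In the KO it stood at 1.35, 3.37, 2.22, 1.03 and 2.7 CPM with Tg+PDBu and at 6.63, 5.89, 2.25, 1.46 and 1.39 CPM with LPS, in the same order of cultures, and the groups overlapped (log2 difference -0.53 ± 0.35, SE; adjusted p = 0.255, edgeR). In WT the median was 16.2 CPM with Tg+PDBu (range 9.17 to 24.1, n = 6) and 0.315 CPM with LPS (range 0 to 1.21, n = 6). KO minus WT was -5.82 ± 0.63 (SE; adjusted p = 2.01e-05, edgeR), and -6.17 ± 0.67 without WT female culture 3 (SE; adjusted p = 2.79e-05, edgeR). With vehicle, row 11919 stood at 2.18 ± 0.645 CPM in the KO and 0.366 ± 0.205 CPM in WT (SD, n = 6 each). In rows 624 and 37614 no vehicle library of either genotype was above 0.964 CPM.

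The 4 rows named for the largest differences in the KO were not among those called for a genotype difference. Each had few counts on its lower side, so a missing call does not show that the genotypes were alike. For row 13484 the log2 difference was -9.75 in the KO and -9.74 in WT, and KO minus WT did not pass (adjusted p = 0.972, edgeR). With Tg+PDBu it had 6 counts over the KO libraries and 16 over the WT libraries, so neither fold is known closely. Its LPS level was 71.0 ± 30.0 CPM in the KO (SD, n = 5) and 237 ± 66.0 CPM in WT (SD, n = 6). Row 693 differed by -9.23 in the KO and -11.01 in WT, and KO minus WT was 1.79 ± 1.50 (SE; adjusted p = 0.490, edgeR). Row 3460 stood at 29.8 ± 10.4 CPM with Tg+PDBu in the KO (SD, n = 5) and 5.46 ± 2.23 CPM in WT (SD, n = 6), and KO minus WT of the log2 difference was 2.01 ± 1.08 (SE; adjusted p = 0.244, edgeR). With LPS row 3460 had 15 counts over the KO libraries and 10 over the WT libraries. Row 17372 stood at 15.4 ± 4.20 CPM with Tg+PDBu in the KO (SD, n = 5) and 2.88 ± 1.51 CPM in WT (SD, n = 6). With LPS it had 0 counts in all WT libraries and 10 counts over those of the KO. KO minus WT of its log2 difference was -1.52 ± 1.13 (SE; adjusted p = 0.435, edgeR). Without WT female culture 3, the WT means were 5.06 CPM for row 3460, 2.41 CPM for row 17372 and 255 CPM for row 13484, and no call of the 4 rows changed.

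Microglia sorted from adult KO mice gave a separate set of LPS libraries, 7 at 24 h and 6 with vehicle. That they are sorted cells rests on the sample labels, which were followed here although other metadata of the same samples speak of primary microglia in culture. The sorted cells differ from the cultures in age, tissue, route and dose of LPS, time and library kit, and rows were matched by their position in the tables, whose mean levels had a Spearman correlation of 0.853 over 26168 rows (0.405 when 1 table was moved by 1 row). Of 13098 rows tested in both tables, 14.2% rose and 11.3% fell at 24 h after LPS. Among the 2840 rows higher with LPS in culture, 512 (18.0%) rose and 330 (11.6%) fell, and among the 3060 rows higher with Tg+PDBu in culture, 565 (18.5%) rose and 362 (11.8%) fell. These shares were close to each other, and for a rise both were above that of all rows, a difference that was not tested. Of the 393 rows higher with LPS over 4-fold in culture, 148 (37.7%) rose and 27 (6.87%) fell, with a median log2 change of 0.48 in sorted cells against 0.00 over all rows. Of the 228 rows higher with Tg+PDBu over 4-fold, 45 (19.7%) rose and 25 (11%) fell, with a median of -0.02.

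**Figure D5:**
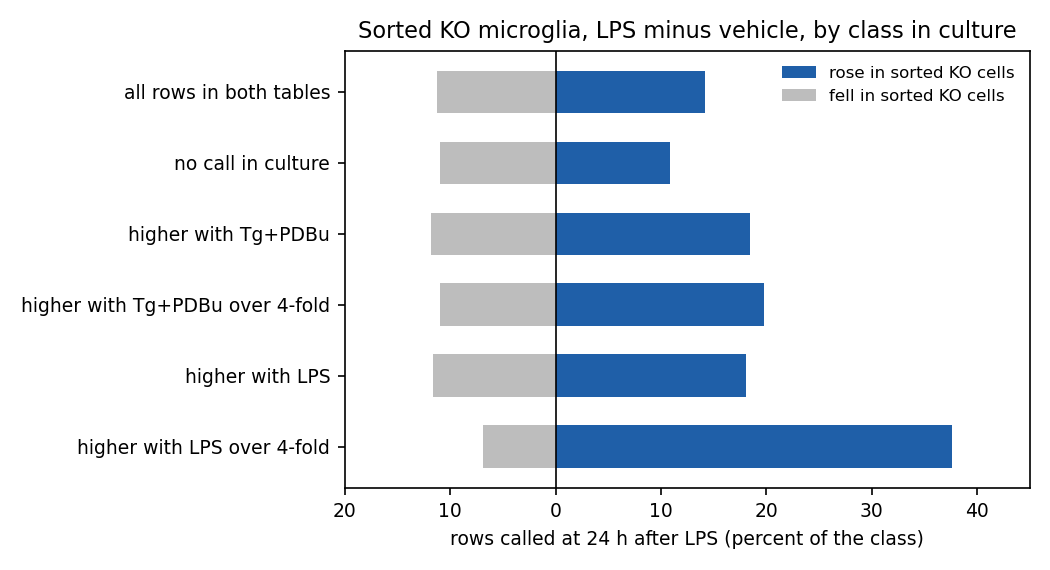
Percent of rows that rose (right) or fell (left) in sorted KO microglia at 24 h after LPS, for all 13098 rows tested in both tables and for classes of the direct comparison in KO cultures. Rows higher with LPS over 4-fold in culture rose in 37.7%, and the other classes in 10.8% to 19.7%.

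At 6 h after LPS there were 3 libraries of sorted KO males, and 1 of them stood apart. The library numbered 1 had 2106 of 15344 rows over 2-fold from the mean of the male KO vehicle libraries, against 3895 and 4092 rows in libraries 2 and 3. Row 11765, described in the next paragraph, stood at 0 CPM in it, against 25.1 and 25.7 CPM in the other two. What sets this library apart was not tested, and leaving it out was an alternative chosen after the data were seen.

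With the 3 libraries, 138 of the rows higher with LPS in culture rose at 6 h and 79 fell, of those higher with Tg+PDBu 257 rose and 63 fell, and of all rows 622 rose and 389 fell. Without library 1 these numbers were 272 and 284, 448 and 191, and 1150 and 1011. In shares, 8.40% of the rows higher with Tg+PDBu rose at 6 h, 4.86% of those higher with LPS and 4.75% of all rows, and without library 1 the shares were 14.6%, 9.58% and 8.78%. Among rows higher with LPS over 4-fold, 54 of 393 (13.7%) rose and 8 fell with the 3 libraries, and 95 (24.2%) rose and 31 fell without library 1. Among rows higher with Tg+PDBu over 4-fold, 20 of 228 (8.77%) rose and 7 fell with the 3 libraries.

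Rows 11765 and 5782 had the largest rise in sorted cells among rows higher with LPS in culture. Row 11765 stood at 627, 330, 476, 580 and 252 CPM in the LPS cultures 15, 16, 18, 6 and 8 and at 3.24, 7.87, 2.69, 6.63 and 2.78 CPM in the Tg+PDBu cultures 16, 7, 18, 6 and 8. In sorted KO cells it had 2 counts over the 6 vehicle libraries and a median of 66.3 CPM at 24 h (range 13.2 to 111, n = 7; adjusted p = 2.68e-06, edgeR). Row 5782 stood at 69.6, 51.2, 69.0, 58.7 and 10.9 CPM with LPS and at 9.89, 6.67, 6.99, 4.81 and 1.35 CPM with Tg+PDBu, in the same order, so that male culture 8 was the lowest with either stimulus and groups did not overlap. In sorted cells its median was 0.0741 CPM with vehicle (range 0 to 1.12, n = 6) and 23.7 CPM at 24 h (range 4.43 to 63.1, n = 7), a log2 change of 7.27 ± 1.34 (SE; adjusted p = 0.000224, edgeR).

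Rows 3646 and 3886 had the largest falls in sorted cells among rows higher with LPS in culture, and their differences in culture were small. Row 3646 stood at 6.94, 11, 11.5, 11.6 and 6.95 CPM with LPS and at 6.74, 2.32, 4.84, 5.42 and 5.03 CPM with Tg+PDBu, with a log2 difference of -0.91 ± 0.30 (SE; adjusted p = 0.0354, edgeR). That call was lost when any of the LPS libraries of cultures 16, 18 and 6 or the Tg+PDBu libraries of cultures 7, 18, 6 and 8 was left out (adjusted p = 0.0587 to 0.126, edgeR). In sorted cells its median was 16 CPM with vehicle (range 6.10 to 21.9, n = 6) and 0.607 CPM at 24 h (range 0.164 to 3.05, n = 7), without overlap. Row 3886 stood at 4.29, 5.57, 5.34, 2.02 and 1.71 CPM with LPS and at 1.17, 1.50, 1.21, 1.46 and 2.43 CPM with Tg+PDBu, in the same order of cultures. Male culture 8 was higher with Tg+PDBu, against the other cultures that had both stimuli, and the groups overlapped. Row 3886 differed by -1.29 ± 0.38 in culture (SE; adjusted p = 0.022, edgeR) and lost its call with the culture as a block (adjusted p = 0.0861, edgeR) and without the LPS library of culture 16 or the Tg+PDBu library of culture 16 or 7 (adjusted p = 0.0545 to 0.0743, edgeR). In sorted cells it had 41 counts over the 6 vehicle libraries and 3 counts over the 7 libraries at 24 h.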

How the data were processed

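Cultured and sorted mouse microglia were profiled by RNA sequencing. The authors deposited raw counts, whole numbers without normalization or row names, for 34 culture and 33 sorted libraries. The submitters' processing notes name STAR 2.7.10a, Salmon 1.10.1, Trim Galore 0.6.7 and the build GRCm38, and how reads were assigned to rows is not given in the sources used here. Libraries were grouped by their labels. The members, comparisons and the rule for named rows were chosen with earlier results of these data known.

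Rows were kept with filterByExpr (minimum count 10, minimum total 15), which left 99.9% of the counts in the 10 libraries, and scaled by TMM. The test was the quasi-likelihood F test in edgeR 4.0.16 (R 4.3.3). Each genotype, sex and treatment had its own mean, and sexes were weighted equally. Calls are Benjamini-Hochberg adjusted p under 0.05 over all rows of a fit, two-sided. SE were derived from the estimate and its F statistic, and 95% intervals from the same fit. CPM used the TMM scaling of all libraries of a table, and log2 CPM a prior count of 2. Alternatives were RLE size factors, no filter, DESeq2 1.42.0, voom of limma 3.58.1, a 2-fold minimum, all 34 libraries, a culture block, and leaving out each library. Leaving out library 1 of the sorted KO males at 6 h was added after seeing the data. Counting limits use 3 counts and cover counting error alone, since reads carry no molecular identifiers.

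At most 2 rows a direction were named: by the largest difference in each comparison, for opposite changes by the larger of the smaller change, and for sorted cells by the largest change among rows higher with LPS in culture, all at an average of 1 log2 CPM or more. Row 1 was added from earlier results. The lists of marker and pathway genes could not be applied without names.

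Tests on simulated counts for the direct comparison found 75% of the changes set at 2-fold and 97% at 4-fold, with 6 false calls among 14903 rows. For KO minus WT they found 30% and 90%, with 6 among 14949. The simulations changed 100 rows at each fold, all at a mean of 1 log2 CPM or more. Their spread followed the trend over level, and no culture effect was shared between libraries. The real data differ in these points, so the shares and false calls hold for the simulated setting only. The chi-square per degree of freedom of replicate pairs was 16.1 to 42.3, above sampling noise. Library names carry a culture number, and libraries of the same genotype, sex and number deviated together from their group means (correlation 0.222 to 0.235 in 4 KO cultures, 0.105 to 0.465 in 6 WT cultures). The pairing comes from these numbers. Nothing states that the numbers stand for separate animals, so p-values measure the spread between these libraries.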

Additional observations from a re-analysis of the deposited data

Results flagged for a closer look

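In 5 of the 32 groups of 5 libraries behind the named rows, 1 library stood far from the other 4 (Dixon's criterion at 95%, which chance meets in about 1 group in 20). Row 3460 reached 47.8 CPM in the Tg+PDBu library of female culture 7, against 22.3 to 29.3 CPM in the others. Row 44376 was also high in that library, at 24.6 CPM against 10.7 to 14.7 CPM. Row 693 had 0 CPM in the Tg+PDBu library of female culture 16, against 0.300 to 0.365 CPM. Row 20983 stood at 6.09 CPM in the LPS library of male culture 8, against 1.67 to 2.84 CPM. Row 3886 stood at 2.43 CPM in the Tg+PDBu library of male culture 8, against 1.17 to 1.50 CPM.

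The difference between the stimuli itself differed between KO and WT in 2479 rows by the interaction test of edgeR, as given above.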

How the results depend on the processing

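The numbers of rows higher with Tg+PDBu and with LPS stayed within 1.5 times of the values given, 3457 and 3258, with RLE size factors, no filter, DESeq2, voom, all 34 culture libraries, the culture as a block (3748 and 3556), no term for sex, and the 4 cultures with both stimuli. They ranged from 3045 to 3592 and from 2725 to 3210 when a library was left out, and were 1334 and 1508 with a 2-fold minimum. The block ended the calls of rows 37614 and 3886 given above and no other call of a named row.

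For the male minus female difference, where edgeR called 0 rows, no filter gave 1, all 34 libraries 1, DESeq2 9, and leaving out a library 0 to 5 (5 without the LPS library of female culture 15, 3 without that of culture 16). For KO minus WT, rows above 0 ranged from 1140 to 2137 and rows below 0 from 643 to 1146 when a library was left out, and rows below 0 numbered 1371 with DESeq2 and 1523 with all 34 libraries. The cause was not tested.

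Among rows higher with LPS in culture, those that rose and fell in sorted KO cells numbered 227 and 120 with a 2-fold minimum, and 138 and 79 at 6 h. Among rows higher with Tg+PDBu the numbers were 154 and 79, and 257 and 63, and without a filter 236 fell. Leaving out a sorted library gave 438 to 518 and 250 to 340 for the first class, and 465 to 580 and 286 to 379 for the other. At 6 h rows 5782 and 3646 missed the threshold (adjusted p = 0.0506 and 0.0656, edgeR), and row 3886 had a positive estimate of 1.36 (adjusted p = 0.466, edgeR). Without library 1 at 6 h, an alternative chosen after seeing the data, 273 rows of the first class rose and 284 fell over every row tested in that fit, and 449 and 191 of the other. Rows 5782 and 3646 then passed (adjusted p = 0.0137 and 0.00554, edgeR) and row 3886 had -0.27 (adjusted p = 0.918, edgeR). The numbers at 24 h stayed within 1.5 times without that library. Row 3646 also lost its call in culture with all 34 libraries (adjusted p = 0.0815, edgeR), and row 3886 with voom (adjusted p = 0.057, limma) and with the 4 cultures of both stimuli (adjusted p = 0.0672, edgeR).

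Depth limits the rows with at most 3 counts over the libraries of a stimulus, 33 called rows for LPS and 20 for Tg+PDBu, and gene identities, splice forms and reads shared between similar genes could not be assessed.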
